A study of Mus musculus with 3 samples.

Results

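The iron genes of the mouse lacrimal gland (LG) were followed from uptake to export: Tfrc, Trf, Fth1, Ftl1, Slc40a1, Slc11a1 and Hmox1. They were taken by symbol, 7 of the 32285 genes listed in the single-cell count tables, of which 20493 had at least 1 count in the kept cells. Every one of the 7 was found, each with 1 entry. RNA was counted as UMIs, barcoded tags that mark each captured molecule so that copies made by PCR are not counted again. The 7 genes differed widely in depth: Fth1 had 198692 UMIs, Ftl1 70783, Trf 2150, Tfrc 2084, Hmox1 1131, Slc11a1 596 and Slc40a1 107.

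The study prepared 3 LG cell suspensions from C57BL/6J mice aged 2 months, with no treatment and no altered allele named. Each library pooled the 6 glands of 3 animals: a female library (replicate 1) and the libraries of male replicate 1 and male replicate 2. The female and the male libraries were also run at different sequencing cores and on different days, so an effect of sex cannot be told apart from one of core or day. Animals were pooled before sequencing, so the spread between libraries is not a spread between mice, and the p-values below measure only the spread between these 3 libraries.

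Most cells take up iron bound to transferrin, the serum carrier encoded by Trf, through the transferrin receptor Tfrc. Iron that is not used at once is kept in ferritin, a shell of heavy (Fth1) and light (Ftl1) chains, and leaves the cell through ferroportin (Slc40a1), the known cellular exporter of iron. Macrophages recover iron from engulfed cells: heme oxygenase 1 (Hmox1) opens the heme ring, Slc11a1 (NRAMP1) moves metal ions out of the phagosome, and ferroportin returns the iron to plasma. Cells adjust these genes after transcription as well: iron regulatory proteins bind hairpins in the RNA, the iron-responsive elements, which block translation when they stand in the 5′ UTR and stabilise the RNA when they stand in the 3′ UTR.

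These hairpins bear on how the counts can be read, since RNA level and protein level need not move together for the genes that carry them. A 17-base core was searched on the sense strand of annotated transcripts (GENCODE M21, mm10/GRCm38). It was defined as a C, any 5 bases, the letters CAGTG and any 6 bases, with 5 stem bases on each side able to pair (G with U allowed) and a base other than G after CAGTG. It was found in 4 of the 7 genes and in 222 of 21901 protein-coding genes (1.01%), and among 68 other iron genes in Alas2 only. The cores are shown because they separate the uptake gene from the storage and export genes by their place in the transcript. Capitals mark the 6-base loop, and each sequence is the sense strand, written 5′ to 3′ as DNA.
Tfrc, 3′ UTR, chr16:32631225-32631241, plus strand: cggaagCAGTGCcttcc
Tfrc, 3′ UTR, chr16:32631604-32631620, plus strand: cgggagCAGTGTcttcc
Tfrc, 3′ UTR, chr16:32631669-32631685, plus strand: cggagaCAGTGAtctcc
Tfrc, 3′ UTR, chr16:32631716-32631732, plus strand: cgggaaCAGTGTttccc
Fth1, 5′ UTR, chr19:9982738-9982754, plus strand: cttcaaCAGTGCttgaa
Ftl1, 5′ UTR, chr7:45459785-45459801, minus strand: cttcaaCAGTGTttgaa
Slc40a1, 5′ UTR, chr1:45925471-45925487, minus strand: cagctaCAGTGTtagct
All 4 cores of Tfrc lay in its 3′ UTR, and the single cores of Fth1, Ftl1 and Slc40a1 lay in the 5′ UTR. No match in Trf, Slc11a1 and Hmox1 says only that these letters are not in their annotated transcripts.

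After limits on depth and removal of likely doublets, 7652, 5295 and 5397 cells were kept from the female library, male replicate 1 and male replicate 2. Their summed depth was 55375501, 37754290 and 41316199 UMIs, and the median cell held 3254, 1885 and 1789 UMIs. The 3 library pairs shared 8 to 13 barcodes. Clustering left out the 7 genes and 69 other iron genes, and 16792 of the 18344 cells fell into 14 classes named from marker genes ("-like"). The cluster of the acinar state that the study named for Tfrc is called Tfrc-hi-type here, from 13 other markers. Macrophage markers summed to between 10828 and 18145 CPM in the 3 macrophage-like classes and to 344 CPM or less in every other class. Tear-product RNA of acinar cells was found in all classes and made up 80.3 to 85.3% of the UMIs in barcodes without a cell, so levels are given as CPM outside tear products (counts per 1000000 UMIs of genes other than 127 tear-product genes). Classes were built from the other genes of the same cells, so the tests compare clusters made from these data and not sorted populations.

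**Figure D1:**
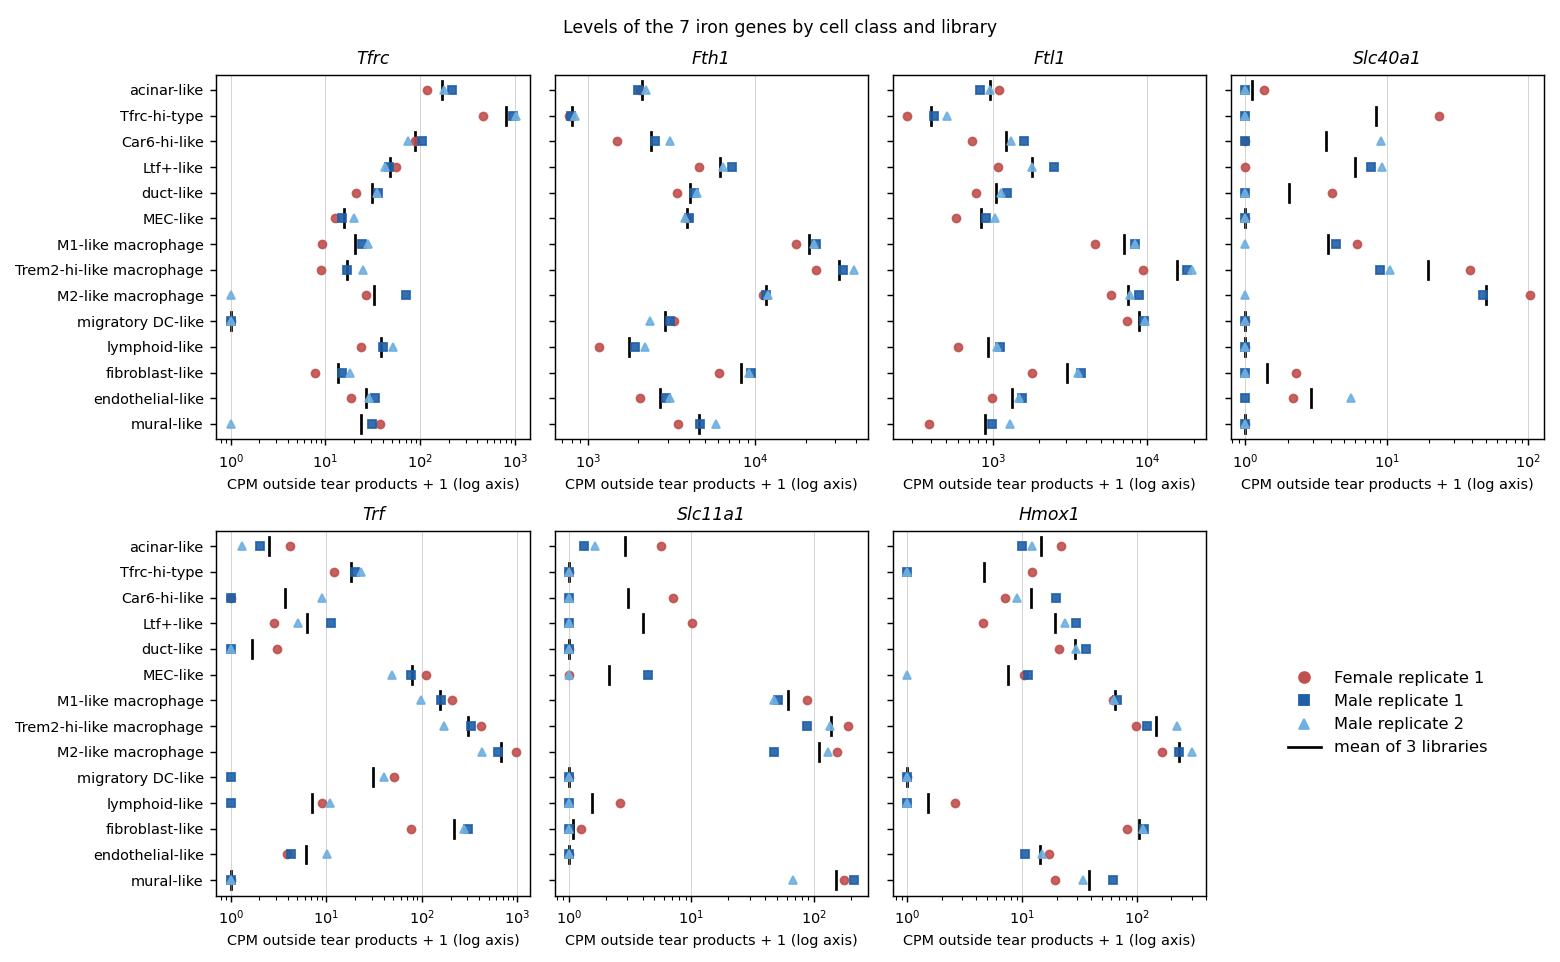
Level of each of the 7 iron genes (CPM outside tear products plus 1, log axis) in the cell classes, with 1 point for each of the 3 libraries. Tfrc was highest in the acinar states, ferritin and Trf in macrophage-like classes, and Slc11a1 was shared by macrophage-like and mural-like cells.

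Relative to the RNA outside tear products, RNA of the uptake receptor Tfrc was highest in acinar cells. The Tfrc-hi-type class held 457, 946 and 1009 CPM outside tear products of Tfrc in the female library, male replicate 1 and male replicate 2 (804 ± 302, SD, n = 3 libraries), and the other acinar-like cells 118, 215 and 176 CPM (170 ± 49.0). Car6-hi-like acinar cells followed with 86.0, 104 and 72.9 CPM and Ltf+-like cells, the small and intercalated duct type marked by lactoferrin, with 54.3, 45.7 and 41.1 CPM. These 4 epithelial classes stood in this order with no overlap between neighbours. From Ltf+-like cells downward neighbours overlapped: lymphoid-like cells lay between 22.5 and 50.4 CPM, duct-like cells between 19.9 and 34.9, M1-like macrophages between 8.17 and 27.1 and fibroblast-like cells between 6.74 and 17.3. Migratory DC-like cells, 94 in all, held no Tfrc UMI. The acinar-like class outside the small states made up 12.3, 28.9 and 37.6% of the cells in the female library, male replicate 1 and male replicate 2, and carried 54.0, 81.3 and 81.4% of all Tfrc UMIs. It also held 29415260, 29934783 and 34205948 of the 55375501, 37754290 and 41316199 UMIs of all kept cells. Its share of Tfrc UMIs was thus close to its share of all UMIs, tear products included.

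Relative to the RNA outside tear products, both kinds of duct cell held less Tfrc and more ferritin heavy chain than all acinar-like cells. In edgeR's quasi-likelihood test with Benjamini-Hochberg adjustment over all genes, Tfrc was lower in Ltf+-like cells (log2 fold change -2.11 ± 0.21, SE, adjusted p = 5.0e-05) and in duct-like cells (-2.88 ± 0.22, adjusted p = 8.2e-07), in 3 of 3 libraries each. Fth1 was higher in Ltf+-like cells, with 4632, 7318 and 6447 CPM against 1984, 2004 and 2234 CPM in the female library, male replicate 1 and male replicate 2 (1.31 ± 0.15, adjusted p = 9.6e-05). It was also higher in duct-like cells, with 3413, 4306 and 4488 CPM (0.72 ± 0.21, adjusted p = 0.013). Neither set of values overlapped the acinar-like ones. Ftl1 and Hmox1 did not pass the test in either comparison, at 0.60 ± 0.23 and 0.27 ± 0.56 for Ltf+-like and -0.14 ± 0.22 and 0.49 ± 0.44 for duct-like cells. Thus 2 of the 4 members tested were called in each comparison, where 36.0% and 46.2% of all genes tested were called, so these counts are not large beside the background. The call of Fth1 in duct-like cells was lost when free RNA was subtracted (0.41, adjusted p = 0.27) and without male replicate 1 (0.56, 0.20) or male replicate 2 (0.64, 0.17). Barcodes without a cell held 8307, 4003 and 4124 CPM of Fth1 in the 3 libraries, above the acinar-like level in each.

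Ltf+-like and duct-like cells were set against each other in the same way. Of the 4 members tested only Ftl1 was called, at 1088, 2502 and 1789 CPM in Ltf+-like and 777, 1244 and 1130 CPM in duct-like cells (0.60 ± 0.20, adjusted p = 0.036, edgeR's quasi-likelihood test), while 32.3% of all genes were called. It was higher in each library, but the ranges of both classes overlapped. Tfrc (0.85 ± 0.34, adjusted p = 0.073), Fth1 (0.46 ± 0.24, 0.17) and Hmox1 (-0.96 ± 0.43, 0.11) did not pass. The Ftl1 call was lost without male replicate 1 (0.50, adjusted p = 0.29), without male replicate 2 (0.68, 0.15), without the pairing by library (0.66, 0.15) and in DESeq2 (0.63, 0.11).

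Within the acinar cells the state of highest Tfrc had the lowest ferritin of all classes. Tfrc-hi-type cells, 331 in all, held 770, 794 and 833 CPM of Fth1 in the female library, male replicate 1 and male replicate 2, against 2021, 2024 and 2254 CPM in the other acinar cells. Ftl1 lay at 279, 416 and 504.3 CPM against 1082, 857 and 976 CPM. The values of Tfrc, Fth1 and Ftl1 did not overlap between the arms. Within each library both ferritin chains were below every other of the 14 classes. Across libraries the Ftl1 range overlapped with that of mural-like cells (389 to 1290 CPM). The log2 fold changes were 1.64 ± 0.23 for Tfrc (adjusted p = 6.3e-11), -1.98 ± 0.27 for Fth1 (1.8e-11) and -1.92 ± 0.27 for Ftl1 (4.8e-11) in edgeR's quasi-likelihood test. These were 3 of the 5 members tested, beside 29.8% of all genes. Trf (2.57 ± 0.98, adjusted p = 0.062), from 1 UMI in each library, and Hmox1 (-2.03 ± 1.32, adjusted p = 0.26) did not pass. With arms scaled by total UMIs, tear products included, the median gene rose by 2.24 on the log2 scale and Fth1 and Ftl1 turned to 0.44 and 0.50, so their direction holds only relative to the RNA outside tear products.

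Several values moved together with that state. Its cells were shallower, with a median of 2057, 1389 and 1042 UMIs against 4534, 7201 and 8364 in the other acinar cells. The nuclear RNA Malat1 stood at 149446, 103994 and 115038 CPM against 18620, 13818 and 9190 in acinar-like cells, and Neat1, another nuclear RNA, at 4809, 2440 and 3201 against 549, 474 and 428. Both are among the markers that named the class, and their part in the ferritin and Tfrc values was not tested. When only cells under 3000 UMIs entered both arms, a choice made after the depths had been seen, all 3 calls held, at 1.67 for Tfrc, -1.09 for Fth1 and -1.28 for Ftl1. Thinned to 1000 UMIs per cell, tear products included, 21.7, 22.1 and 18.99% of Tfrc-hi-type cells held a Tfrc UMI, against 1.74, 4.32 and 3.54% of acinar-like and 0.613, 0.672 and 0.901% of fibroblast-like cells. This left out 0, 4 and 52 Tfrc-hi-type, 26, 1 and 22 acinar-like and 51, 122 and 148 fibroblast-like cells of lower depth. Without thinning, the shares were 33.7, 33.3 and 29.0% in Tfrc-hi-type, 20.8, 31.8 and 22.7% in acinar-like and 1.55, 1.12 and 1.25% in fibroblast-like cells. Tear products took 51.3, 72.3 and 70.0% of the summed UMIs of Tfrc-hi-type cells and 90.2, 89.9 and 90.7% of those of the other acinar cells. Cells thinned alike therefore need not hold equal amounts of other RNA, so the thinned shares are not on the scale of the CPM.

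**Figure D2:**
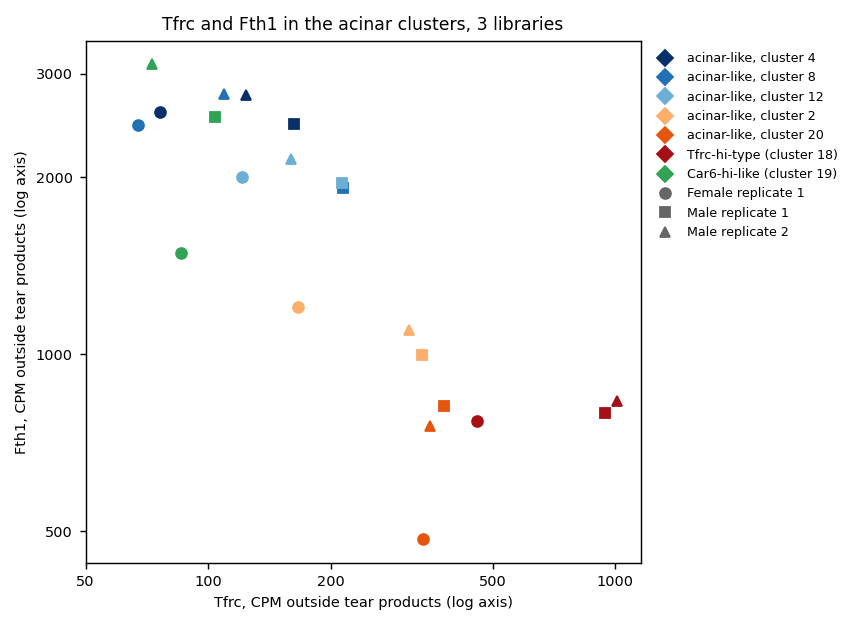
Tfrc against Fth1 (CPM outside tear products, log axes) in the acinar clusters, the Car6-hi-like and the Tfrc-hi-type cells, with 1 point for each cluster and library. Clusters 2 and 20 and the Tfrc-hi-type cells had more Tfrc and less Fth1 than cluster 4 in each library, and the lowest Fth1 was that of cluster 20 in the female library and male replicate 2 and of Tfrc-hi-type cells in male replicate 1.

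The other acinar clusters differed among themselves in the same genes, as the plot of Tfrc against Fth1 shows. The deepest of them, cluster 4 (a median of 42669.5 UMIs per cell), held 76.3, 163 and 124 CPM of Tfrc and 2587, 2462 and 2765 CPM of Fth1. Cluster 2, of 1523 cells, held 167, 336 and 312 CPM of Tfrc and 1202, 996 and 1099 CPM of Fth1. Cluster 20, of 287 cells, held 337, 380 and 350 CPM of Tfrc and 485, 816 and 754 CPM of Fth1, the latter overlapping with the Tfrc-hi-type values. The Tfrc-hi-type markers were the second-best list in clusters 2 and 20, at a mean log2 ratio of 1.37 and 1.47. The acinar markers stood at 1.97 and 2.27 there. At resolution 1.5 a Tfrc-hi-type cluster of 591 cells was found, against 331 cells at resolution 1. Mitochondrial RNA was 6.91 to 7.14% of the UMIs in cluster 20 and 0.452 to 0.540% in cluster 4. The median depth was 2939 UMIs per cell in cluster 2 and 5252 in cluster 20, and the part of depth in these Tfrc values was not tested. Cluster 8, with a median of 6900.5 UMIs, had a median mitochondrial share of 0.437%.

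The acinar cells outside the small states were also split at each library's median mitochondrial share, in place of the study's own main acinar clusters. Cells of high share held more Tfrc, at 252, 475 and 333 CPM against 101, 186 and 126 CPM (0.84 ± 0.15, adjusted p = 3.3e-05, edgeR's quasi-likelihood test). They held less Fth1, at 1533, 1455 and 1760 CPM against 2664, 2576 and 2952 CPM (-1.30 ± 0.15, adjusted p = 4.5e-08). Neither pair of ranges overlapped. Ftl1 was called lower (-0.63 ± 0.15, adjusted p = 0.0011), although its CPM were lower in the female library alone (1035 against 1363) and close to equal in male replicate 1 (976 against 961) and male replicate 2 (1109 against 1089). With counts scaled by UMIs outside tear products, which raised the median gene by 0.63 on the log2 scale, Ftl1 was at -0.11 (adjusted p = 0.52). With total UMIs it turned to 0.69 and Fth1 to 0.020. Without the pairing by library, Fth1 alone was called (-1.30, adjusted p = 0.0088), with Tfrc at 0.84 (0.074) and Ftl1 at -0.64 (0.063). The 3 calls were made of 4 members tested, beside 45.9% of all genes. The arms differed in depth, with medians of 1714, 4196 and 5638.5 UMIs for high and 24373, 31518 and 21287 UMIs for low share. Cells under 3000 UMIs were split anew at their own median share in each library, so these arms are not the ones above. Among them no member was called and 14 of 828 genes tested were called, with Tfrc at -0.33, Fth1 at -0.21 and Ftl1 at 0.22. The main test covered 8848 genes.

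Car6-hi-like cells, an acinar state rich in the secreted carbonic anhydrase Car6, held less Tfrc than the other acinar cells. The values were 86.0, 104 and 72.9 CPM against 129, 228 and 188 CPM and did not overlap (-1.03 ± 0.26, adjusted p = 0.023, edgeR's quasi-likelihood test). This was 1 of 4 members tested, beside 4.05% of all genes called. Fth1 (0.11 ± 0.21), Ftl1 (0.27 ± 0.23) and Hmox1 (-0.45 ± 0.80) did not pass. The Tfrc call was lost in DESeq2 (-1.01, adjusted p = 0.28), without the pairing by library (-1.08, 0.17), without male replicate 1 (-0.97, 0.16) and without male replicate 2 (-0.91, 0.17). Without the female library, Fth1 (0.38, adjusted p = 0.048) and Ftl1 (0.65, 0.0044) were called higher.

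Trf RNA, for the carrier rather than the receptor, was low in most of the epithelium. M2-like macrophages, marked by Mrc1 and Pf4, held 955, 629 and 430 CPM of Trf in the female library, male replicate 1 and male replicate 2, above every other class. Trem2-hi-like macrophages followed with 420, 323 and 168 CPM, fibroblast-like cells with 77.0, 301 and 274 CPM, M1-like macrophages with 205, 157 and 96.6 CPM and MEC-like (myoepithelial) cells with 110, 75.7 and 47.8 CPM. Below M2-like macrophages neighbours in this order overlapped. The fibroblast-like level was lowest in the female library, while the levels of the 3 macrophage-like classes and of MEC-like cells were highest there. Acinar-like, Car6-hi-like, Ltf+-like and duct-like cells stayed at or below 10.2 CPM in every library, from at most 9 UMIs each, and mural-like cells held none. By UMIs, fibroblast-like cells carried 18.8% of the Trf RNA in the female library and 46.2% in male replicate 1, and M1-like macrophages 30.1 and 12.5% in the same libraries.

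Ferritin RNA was concentrated in macrophages. Trem2-hi-like macrophages held 23158, 33511 and 38809 CPM of Fth1 in the female library, male replicate 1 and male replicate 2, and M1-like macrophages 17632, 23186 and 22387 CPM. M2-like macrophages held 11078, 11585 and 11951 CPM, and did not overlap with their neighbours in the order. Fibroblast-like cells reached 6044 to 9457 CPM and Ltf+-like cells, the highest of the epithelium, 4632 to 7318 CPM. MEC-like, mural-like and duct-like cells lay between 3413 and 5823 CPM and overlapped. Ftl1 was again highest in Trem2-hi-like macrophages, with 9324, 18143 and 19448 CPM. Migratory DC-like cells (7424 to 9651 CPM), M2-like (5870 to 8904) and M1-like macrophages (4602 to 8290) followed and overlapped with one another. The migratory DC-like range also overlapped with that of Trem2-hi-like macrophages. All 14 classes held both chains in all libraries.

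The balance of the chains differed between classes. A molecule is counted at its 3′ end, so the ratio of Fth1 to Ftl1 UMIs was not divided by gene length, and it is compared between classes only, since the tags of both genes may be captured unequally. Some Ftl1 reads could also be split with its near copy Ftl1-ps1, which had 407 UMIs. Migratory DC-like cells had ratios of 0.441, 0.327 and 0.245 in the female library, male replicate 1 and male replicate 2, below every other class in each library. M2-like macrophages had 1.89, 1.30 and 1.54, and Trem2-hi-like macrophages had 2.48, 1.85 and 2.00. M1-like macrophages had 3.83, 2.80 and 2.70. In the epithelium the acinar-like cells had 1.86, 2.41 and 2.30, the Ltf+-like cells 4.26, 2.92 and 3.60 and the duct-like cells 4.39, 3.46 and 3.97. The acinar-like class as a whole did not overlap with the duct types. Its clusters ranged more widely, with 1.92, 2.90 and 2.95 in cluster 4, reaching the Ltf+-like range, and 0.831, 1.11 and 0.955 in cluster 20. Tfrc-hi-type cells, at 1.65 to 2.76, overlapped with the other acinar cells, so both chains were low there together. Mural-like cells had the highest ratio in each library (8.83, 4.70 and 4.51). MEC-like cells followed in the female library and male replicate 1 (6.77 and 4.39), but lay below duct-like cells in male replicate 2 (3.65).

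**Figure D3:**
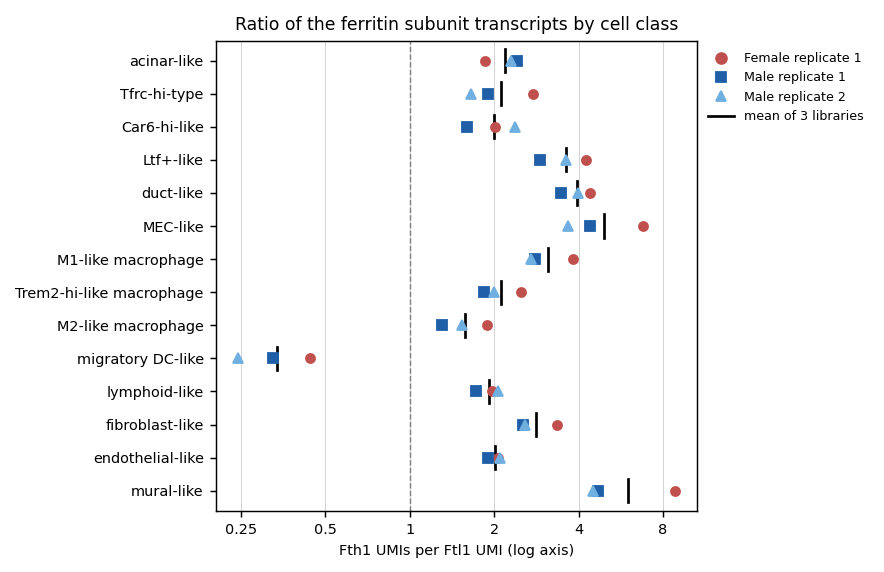
Ratio of Fth1 to Ftl1 UMIs (log axis) in each cell class, with 1 point for each of the 3 libraries. Migratory DC-like cells lie below 1 in all libraries, and mural-like cells highest in each.

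The 7 genes were compared between all macrophage-like and all epithelial-like cells. Macrophage-like cells held 19400, 26746 and 28868 CPM of Fth1 against 2968, 3010 and 2895 CPM (3.59 ± 0.17, adjusted p = 1.7e-06, edgeR's quasi-likelihood test). Ftl1 rose by 3.83 ± 0.19 (2.1e-06), and Tfrc fell by 2.31 ± 0.21 (4.1e-05). Trf was higher by 5.36 ± 0.26 (adjusted p = 1.9e-06) and Hmox1 by 3.33 ± 0.28 (2.6e-05). Slc11a1, a gene known from phagocytes, held 123, 65.4 and 87.7 CPM against 2.58, 0.467 and 0.477 CPM (6.75 ± 0.36, adjusted p = 2.6e-06). Slc40a1 was higher by 3.60 ± 0.56 (8.6e-04), from 68, 5 and 2 UMIs in macrophage-like against 12, 4 and 5 UMIs in epithelial-like cells of the female library, male replicate 1 and male replicate 2. All 7 members were called, 6 of them higher, in this test and in each alternative that could be run, beside 49.3% of all genes (23.2% higher and 26.1% lower).

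Between macrophage types, M2-like cells held less Fth1 and more Trf and Hmox1 than M1-like cells, a class named from markers such as Il1b and Tnf. The M1-like cluster had 1801 cells at resolution 1 and 1190 at resolution 1.5. At resolution 1.5 another 662 macrophages had an M1-like marker score of 0.24, below the 0.5 needed for the name. The Fth1 levels above gave -1.17 ± 0.18 (adjusted p = 1.3e-05) and the Trf levels 1.85 ± 0.25 (1.7e-06) in edgeR's quasi-likelihood test. Hmox1 stood at 166, 233 and 301 CPM against 60.7, 66.8 and 61.8 CPM (1.44 ± 0.37, adjusted p = 0.0043). None of these 3 pairs of ranges overlapped. Ftl1 (-0.18 ± 0.17, adjusted p = 0.52) and Slc11a1 (0.49 ± 0.43, 0.50) did not pass. So 3 of 5 members tested were called, beside 20.4% of all genes. M2-like cells numbered 42, 56 and 31, the Hmox1 values rest on 13, 10 and 7 UMIs, and its call was lost without male replicate 1 (1.29, adjusted p = 0.058).

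Trem2-hi-like macrophages, the type known from lipid-rich tissue, were above M1-like ones in the 5 members that passed the filter on low counts. Ftl1 was higher by 0.99 ± 0.11 (adjusted p = 3.4e-06), Trf by 0.87 ± 0.14 (1.5e-04) and Fth1 by 0.44 ± 0.12 (0.018) in edgeR's quasi-likelihood test. Slc11a1 stood at 189, 86.7 and 134 CPM against 86.5, 50.1 and 46.4 CPM (1.01 ± 0.17, adjusted p = 2.4e-04), and Hmox1 at 97.1, 122 and 221 CPM against 60.7, 66.8 and 61.8 CPM (0.80 ± 0.19, 0.0058). All 5 were higher in 3 of 3 libraries, beside 13.8% of all genes called (6.20% higher). Tfrc, which did not pass that filter, was lower in each library (7.89, 15.8 and 24.0 against 8.17, 23.4 and 27.1 CPM) and was not called without it (-0.32 ± 0.47, adjusted p = 0.97). The 5 calls rest on the pairing by library: without it none was made, and adjusted p-values lay between 0.31 and 0.63. Without the female library, or with free RNA subtracted, only Ftl1 was called. Tear products, which stand for free acinar RNA, took 21.4, 42.7 and 37.5% of the UMIs of Trem2-hi-like and 35.3, 56.7 and 66.2% of those of M1-like cells.

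**Figure D4:**
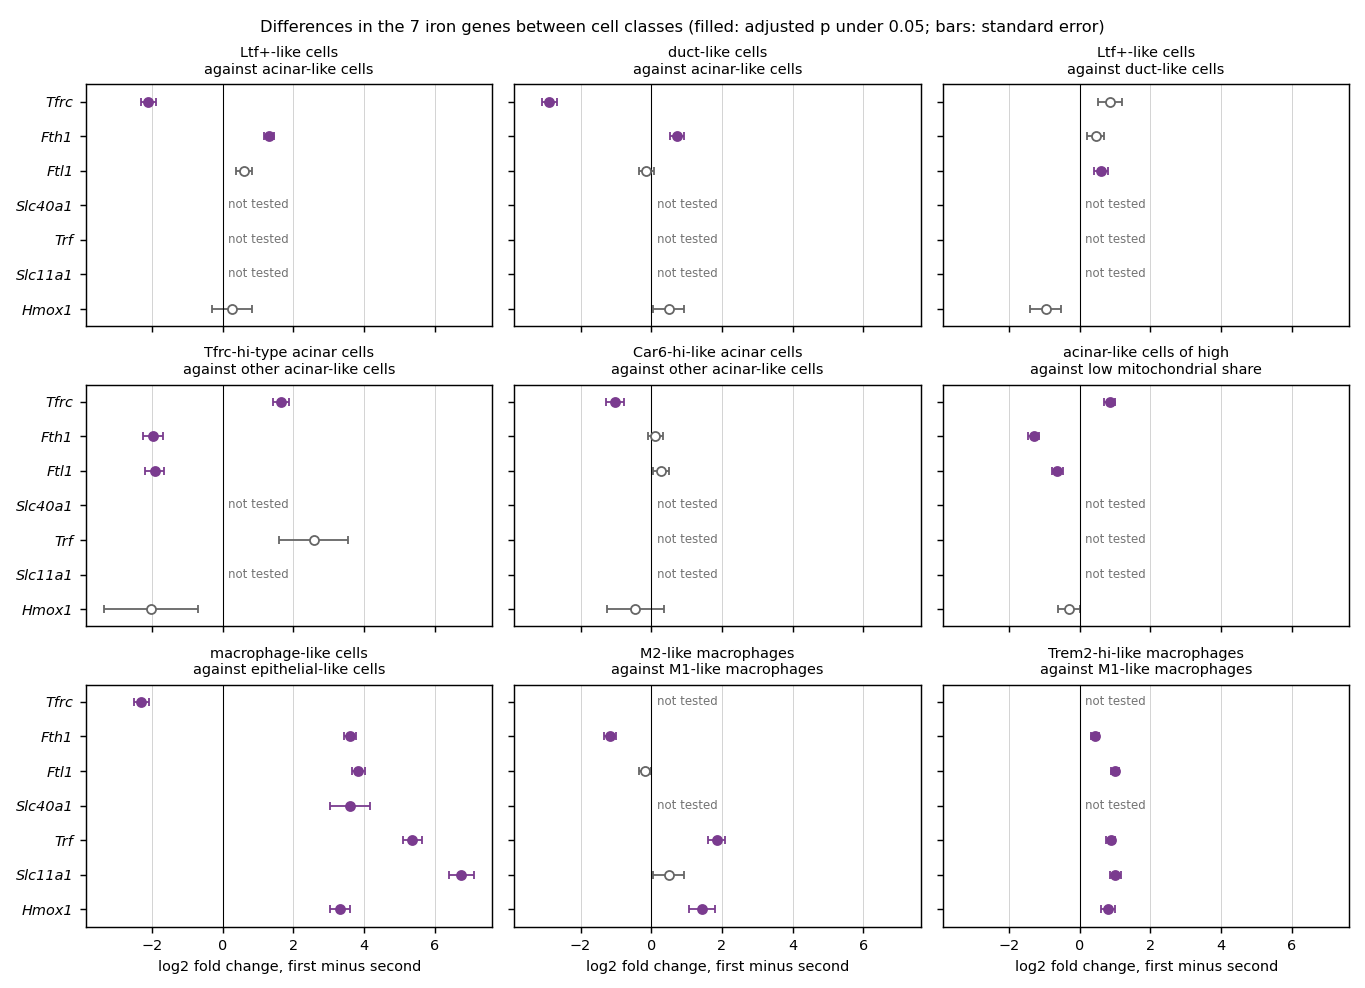
Log2 fold change of each member tested in the 9 comparisons, with bars of 1 SE and filled points for calls at an adjusted p under 0.05 (edgeR's quasi-likelihood test). Tfrc points left and Fth1 right in duct-like and macrophage-like cells, and the reverse in Tfrc-hi-type acinar cells, while Ftl1 lies slightly to the left in duct-like cells (-0.14, not called).

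Slc40a1 RNA was sparse. Of its 107 UMIs, 90 came from the female library, 9 from male replicate 1 and 8 from male replicate 2. Trem2-hi-like macrophages of the female library held 48 of them (37.9 CPM), against 2 UMIs in each male library (7.88 and 9.60 CPM). M2-like macrophages held 8, 2 and 0 UMIs (102, 46.6 and 0 CPM), and M1-like macrophages 12, 1 and 0. In the male libraries the class with most UMIs was Ltf+-like, with 4 in each (6.78 and 8.23 CPM), where the female library held none in 84 cells. By CPM it lay below Trem2-hi-like macrophages in both male libraries and below M2-like ones in male replicate 1. MEC-like, migratory DC-like, lymphoid-like and mural-like cells held no UMI. The comparisons of macrophage types did not keep Slc40a1 at their filter on low counts. Without that filter it was called higher than in M1-like cells in M2-like (3.50 ± 1.03, adjusted p = 0.019) and in Trem2-hi-like macrophages (2.64 ± 0.49, adjusted p = 5.7e-06, edgeR's quasi-likelihood test). Both values rest mostly on the UMIs of the female library, and neither was recomputed without it. In the remaining classes a difference of 1 to 4 UMIs between classes was not detectable at this depth.

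Slc11a1 was found in macrophage-like cells and, at a like level, in mural-like cells, the pericytes and smooth muscle cells around vessels. Mural-like cells held 176, 212 and 66.2 CPM in the female library, male replicate 1 and male replicate 2, from 19, 7 and 2 UMIs, and overlapped with Trem2-hi-like (86.7 to 189 CPM) and M2-like macrophages (46.6 to 153 CPM). Endothelial-like and duct-like cells held no UMI, and fibroblast-like cells 1. The mural UMIs were spread over 22 of 149 cells. These 22 cells held 2 UMIs of the 6 macrophage markers and 748 UMIs of the 6 mural markers. Barcodes without a cell held no Slc11a1 UMI, but their 67990, 231705 and 172853 UMIs, mostly of tear products, are too few to show its absence. The source of the Slc11a1 UMIs in mural-like cells was not tested.

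Hmox1 was highest in M2-like and Trem2-hi-like macrophages, whose values are given above, and fibroblast-like cells followed with 81.1, 114 and 112 CPM. Fibroblast-like cells carried 40.9% of all Hmox1 UMIs in the female library, 34.2% in male replicate 1 and 22.5% in male replicate 2. Duct-like cells lay at 19.9 to 34.9 CPM, from 58, 9 and 5 UMIs (the same range as for Tfrc, from 58, 9 and 6), and acinar-like cells at 9.03 to 21.04 CPM. Migratory DC-like cells held none. Hemoglobin RNA was nearly absent from the macrophages: 4 globin genes summed to at most 0.430 CPM in M1-like cells and to 0 in the other 2 macrophage-like classes.

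The 69 other genes of iron metabolism were listed by role: uptake and heme import, handling with Fe-S cluster and heme synthesis, export and heme breakdown, and regulators with ferroptosis genes. In duct-like against acinar-like cells, 12 of 51 tested were higher and 20 lower, beside 22.5% and 23.7% of all genes, with a median of -0.45 against -0.04 over all genes. The group for handling, Fe-S cluster and heme synthesis was one-sided, with 0 higher and 14 lower of 22 tested. These directions are relative to TMM scaling, since with total UMIs 9213 of all 10419 genes tested were higher and 152 lower, with a median of 2.65. The higher side was led by Cp, for the ferroxidase ceruloplasmin, with 651 ± 130 CPM against 6.48 ± 8.87 (log2 fold change 6.75 ± 0.52). Next came Heph, for the related ferroxidase hephaestin (6.71 ± 0.87), and Lcn2, for a lipocalin that binds bacterial iron carriers (4.71 ± 0.27). Hp, for the hemoglobin-binding haptoglobin (-3.93 ± 0.29), Nupr1 (-2.94 ± 0.29) and Slc7a11, for a cystine importer (-2.21 ± 0.72), were the lowest.

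In Ltf+-like against acinar-like cells, 13 of 47 genes were higher and 7 lower, beside 17.5% and 18.5% of all genes. Cp (4.01 ± 0.43) and Lcn2 (3.87 ± 0.14) were again among the 3 with the largest rise. The other was Alas1, for the first enzyme of heme synthesis, with 567 ± 54.3 CPM against 56.8 ± 29.1 (3.20 ± 0.32). Slc39a14, for an importer of iron not bound to transferrin (-2.68 ± 0.78), Hp (-2.59 ± 0.12) and the mitochondrial transporter gene Abcb8 (-1.56 ± 0.44) were lower. Against duct-like cells, Ltf+-like cells had 12 of 36 genes higher and 5 lower (14.6% and 17.6% of all genes). Alas1 (3.16 ± 0.19), Nupr1 (2.39 ± 0.24) and Slc25a37, for the mitochondrial iron importer mitoferrin 1 (1.502 ± 0.27), led. Lrp1, for a receptor of the heme carrier hemopexin (-4.33 ± 0.60), Heph (-3.33 ± 0.79) and Cp (-2.81 ± 0.21) were lowest. Duct-like cells thus held the most ferroxidase RNA of the 3 epithelial types and Ltf+-like cells the most Alas1.

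In Tfrc-hi-type acinar cells, 3 of 42 list genes were higher and 11 lower, beside 11.0% and 18.8% of all genes (median -0.56 against -0.19). The heme exporter gene Flvcr1 (2.68 ± 0.90), Slc25a37 (1.52 ± 0.37) and Fbxl5, for an iron-sensing part of a ubiquitin ligase (1.02 ± 0.38), were higher. Blvrb, for a biliverdin reductase (-3.08 ± 1.11), and Hp (-2.30 ± 0.30) were among the lower ones. Slc25a37, with 175 ± 57.6 CPM against 38.4 ± 6.25, was the only gene called higher in the group for handling, Fe-S cluster and heme synthesis. In that group 6 of 21 tested were lower, with a median of -0.58. In Car6-hi-like cells only Lcn2 (2.81 ± 0.32), Alas1 (1.16 ± 0.28) and Hp (-1.08 ± 0.27) were called of 45 tested, beside 2.56% of all genes higher and 1.49% lower. Between acinar cells of high and low mitochondrial share, 7 of 44 were higher and 12 lower (22.3% and 23.7% of all genes). Slc39a14 (1.25 ± 0.38), the lipocalin receptor gene Slc22a17 (1.20 ± 0.37) and Abcb8 (0.86 ± 0.29) were highest there, and Gpx4, for the enzyme that repairs oxidised lipids (-1.50 ± 0.16), and Lyrm4, for Fe-S cluster assembly (-1.43 ± 0.43), were among the lowest, under the depth gap given above.

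In macrophage-like against epithelial-like cells, 15 of 53 list genes were higher and 18 lower. Cd163, for the receptor of hemoglobin bound to haptoglobin (5.97 ± 0.92), Slc7a11 (4.50 ± 0.21) and Nfe2l2, for the antioxidant factor NRF2 (3.95 ± 0.30), led. Lcn2 (-5.36 ± 0.76), the hemojuvelin receptor gene Neo1 (-4.25 ± 0.64) and the ferrireductase gene Steap4 (-4.17 ± 0.70) were lowest. M2-like cells had 4 of 14 genes higher than M1-like cells and 3 lower, beside 8.10% and 12.3% of all genes. Among these were Cd163, with 125 ± 55.6 CPM against 2.40 ± 2.10 (6.00 ± 0.95), Cp (5.02 ± 0.67) and Hmox2, for the constitutive heme oxygenase (1.65 ± 0.38), on the higher side, and Nfe2l2 (-2.11 ± 0.29), Hp (-1.12 ± 0.29) and Nupr1 (-0.91 ± 0.22) on the lower. All 3 tested genes of export and heme breakdown were among the higher ones. In Trem2-hi-like against M1-like cells 5 of 23 were higher and 2 lower (6.20% and 7.56% of all genes). Slc7a11 (1.71 ± 0.24), Lrp1 (1.70 ± 0.18) and Blvrb, with 326 ± 15.5 CPM against 147 ± 30.2 (1.09 ± 0.14), rose, and Hp (-1.21 ± 0.15) and Nupr1 (-1.20 ± 0.13) fell. All calls on this list are those of edgeR's quasi-likelihood test after Benjamini-Hochberg adjustment over all genes.

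To see which genes were patterned most like each member, levels on the scale of log2(CPM outside tear products + 20), centred within library, were correlated over 42 points (14 classes in 3 libraries) with 7246 other genes of at least 500 UMIs. The points of a library share its depth and its free RNA, so the values are descriptions. Tfrc was closest to Tex15 (Pearson r = 0.97), Slc23a1 (0.94), for a vitamin C transporter, and Pde4d (0.92). Fth1 was closest to Ctsb (0.89), for the protease cathepsin B, Blvrb (0.86) and the lipid droplet gene Plin2 (0.85), and Ftl1 to Npc2 (0.93), for a lysosomal sterol carrier, Ctsz (0.92) and Basp1 (0.92). For Slc40a1 they were Stab1 (0.71), Pf4 (0.69) and Fcgr2b (0.68), and for Trf Ccl7, Ctsb and Ccl2 (0.85 each). Genes patterned like Slc11a1 included Taok3 (0.82) and Zeb2 (0.81), and Hmox1 was closest to Tmem106a (0.89), Ctsb (0.87) and Igf1 (0.87). Between members, Fth1 and Ftl1 had r = 0.79, Fth1 and Hmox1 0.81, and Tfrc and Fth1 -0.59.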

How the data were processed

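Single-cell RNA of dissociated LGs was captured on the 10x Genomics platform. The deposited matrices hold raw UMI counts, which the authors obtained with Cell Ranger 6.1.2 on mm10 per the labels (submitters' processing notes), before their correction for free RNA, doublet removal and cell filters. The header of the table of all barcodes names Cell Ranger 4. Coordinates and iron-responsive element cores were read from GRCm38, the same build.

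Of the 9737, 6422 and 6899 barcodes that the authors called as cells (female library, male replicate 1, male replicate 2), 8298, 5582 and 5712 passed limits of over 500 UMIs, over 200 genes and under 15% mitochondrial UMIs. Doublets were scored with scanpy 1.11.5 and removed up to 0.8% per 1000 barcodes (646, 287 and 315 cells). Counts were normalized with sctransform 0.4.2, integrated in Seurat 5.3.0 (3000 features, 30 dimensions) and split at resolution 1 into 27 clusters, with 327 genes left out (the 7 members, the 69 other iron genes and genes of tear products, sex chromosomes, globins, ribosomal proteins and mitochondria). A cluster was named from marker lists when its mean log2 ratio over the other clusters reached 0.5 with 3 raised markers of at least 10 UMIs. A name was refused where a rival list scored 0.6 of it or more and had 2 markers among the 10 leading genes. Free RNA was described from barcodes of 10 to 100 UMIs outside the called set.

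UMIs were summed per library and arm (at least 10 cells) and tested with edgeR 4.0.16 (filterByExpr, TMM, glmQLFit, glmQLFTest) with library and arm in the design, since both arms of a library come from 1 suspension. Genes with a Benjamini-Hochberg adjusted p below 0.05 over all genes tested count as called, and the SE is the log2 fold change over the square root of F. The test was also tried on counts simulated around the means of these data. Alternatives were DESeq2 1.42.0, no pairing, no filter on low counts, other scalings, limits of 5% mitochondrial share or 1000 UMIs, resolutions of 0.6 and 1.5, subtraction of free RNA, and leaving out each library. No test of sex was made with 1 female library. In each comparison the text names the members and, of the other iron genes called, the 3 of largest change in each direction, apart from items that are not reported here. The members, marker lists and iron list were chosen with earlier results of these data known. R 4.3.3, Python 3.11.15, NumPy 2.4.6, SciPy 1.17.1 and matplotlib 3.10.9 were used.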

Additional observations from a re-analysis of the deposited data

Results flagged for a closer look

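For 7 values the female library moved one way between the arms and both male libraries the other way. The differences between the libraries were not tested, since there is 1 female library and its sequencing core and day differ as well. Values are log2 ratios of CPM outside tear products plus 20, in the order female library, male replicate 1 and male replicate 2. Hmox1 in Ltf+-like against acinar-like cells stood at -0.76, 0.74 and 0.47, from 2, 17 and 11 UMIs in Ltf+-like cells. In duct-like against acinar-like cells, Ftl1 stood at -0.44, 0.54 and 0.22, and Hmox1 at -0.00064, 0.91 and 0.65, so that the female value of Hmox1 was close to 0. In Car6-hi-like against other acinar cells, Fth1 stood at -0.43, 0.35 and 0.50 and Ftl1 at -0.53, 0.93 and 0.45. Car6-hi-like cells of the female library had a median of 8342.5 UMIs against 2263 and 3075.5 in the male libraries. Between acinar cells of high and low mitochondrial share, Ftl1 stood at -0.39, 0.02 and 0.03 and Hmox1 at 0.45, -0.22 and -0.03, the last 2 values of each gene being small. None of these 7 values was called over the 3 libraries, apart from Ftl1 in the comparison by mitochondrial share.

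Barcodes outside the called cells, which entered no arm of a comparison, held ferritin RNA. Their profile was used where free RNA was subtracted. In barcodes of 10 to 100 UMIs, Fth1 had 111, 139 and 105 UMIs in the female library, male replicate 1 and male replicate 2, and Ftl1 had 15, 70 and 35 UMIs. The remaining members had 0 to 2 UMIs each there. A count of 0 allows up to 3 UMIs, so both ferritin genes lay above that limit in every library.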

How the results depend on the processing

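Of the 27 member values called, recomputed 340 times in all, 297 kept their direction and side of the threshold, 37 were no longer called and 6 turned in direction. Of 178 values for members not called, 138 stayed so, 24 became called and 16 turned. All 7 members stayed called in macrophage-like against epithelial-like cells. Leaving out 1 library, the number of members called ran from 2 to 5 for Ltf+-like and from 1 to 4 for duct-like against acinar-like cells, from 0 to 2 for Ltf+-like against duct-like cells, from 0 to 3 for Car6-hi-like cells and from 1 to 5 for Trem2-hi-like macrophages. It took Hmox1 in Ltf+-like against acinar-like cells from -0.48 to 1.20, and in duct-like against acinar-like cells Ftl1 from -0.45 to 0.28 and Hmox1 from -0.027 to 1.57. In Car6-hi-like cells it took Fth1 from -0.10 to 0.38, Ftl1 from -0.076 to 0.65 and Hmox1 from -1.23 to 0.34. The higher end was the value without the female library in each of these 6. Without the pairing by library, 0 members were called in Ltf+-like against duct-like cells, 0 in Car6-hi-like and 0 in Trem2-hi-like cells and 1 in the comparison by mitochondrial share, and no other call changed. In DESeq2, 0 were called in Ltf+-like against duct-like cells and 0 in Car6-hi-like cells. Free RNA subtracted left 1 call in duct-like against acinar-like cells and 1 in Trem2-hi-like macrophages. In Ltf+-like against duct-like cells, 2 were called with UMIs outside tear products as scale, 2 with no filter, 2 at resolution 0.6 and 0 with total UMIs. In Car6-hi-like cells 2 were called with total UMIs and 2 among cells under 3000 UMIs. The comparison by mitochondrial share, split anew among cells under 3000 UMIs, had 0, with Tfrc at -0.33 and Ftl1 at 0.22.

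Scaling by total UMIs moved the median gene by -0.50 to 2.65 on the log2 scale. It turned Ftl1 to 2.49 in duct-like cells, Fth1, Ftl1 and Hmox1 to 0.44, 0.50 and 0.48 in Tfrc-hi-type cells and to 0.020, 0.69 and 0.98 in the comparison by mitochondrial share, Hmox1 to 0.33 in Car6-hi-like cells and Ftl1 to 0.42 in M2-like macrophages. UMIs outside tear products as scale gave Ftl1 0.10 in duct-like cells and 0.13 in M2-like macrophages, and Hmox1 0.21 in the comparison by mitochondrial share. The causes were not tested. No value could be had at resolution 0.6 for Car6-hi-like cells and macrophage types, whose clusters merged, or with free RNA subtracted within acinar and Ltf+-like cells, which produce that RNA. Depth limits Slc40a1 most, with 9 and 8 UMIs in the male libraries.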

Other observations

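Levels in cells that the comparisons did not use add to the picture of ferritin. A proliferating-like cluster of 66 cells, cluster 25, held 15612, 21748 and 27957 CPM outside tear products of Fth1 in the female library, male replicate 1 and male replicate 2, which overlaps with M1-like macrophages (17632 to 23186 CPM). The macrophage markers were its second-best list (mean log2 ratio 2.20, against 3.73 for the proliferation markers), and Ccl3, Ccl4 and Cxcl2, chemokine genes known from macrophages, were among its 10 leading genes. It held 4745, 6476 and 8501 CPM of Ftl1 and 1 Tfrc UMI in all. The other proliferating-like cluster, cluster 26 of 39 cells, had acinar markers as its second list and held 6 Tfrc UMIs and 1645 to 2326 CPM of Fth1. An unnamed cluster of 507 cells, cluster 15, held 5552, 11699 and 11417 CPM of Fth1 and 40, 11 and 4 UMIs of Trf. These cells came mostly from the male libraries, with 77, 218 and 212 cells.

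Stromal cells held several of the 7 genes. Fibroblast-like cells had 297, 174 and 95 UMIs of Trf and 313, 66 and 39 UMIs of Hmox1, more of Hmox1 than all macrophage-like cells in the female library (277) and in male replicate 1 (61), and fewer in male replicate 2 (69). Macrophage markers summed to 207 to 344 CPM in fibroblast-like cells and to 10828 CPM or more in each macrophage-like class. Endothelial-like cells held Tfrc at 17.4 to 32.3 CPM and no Slc11a1.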
